A study of Vitis vinifera and Vitis riparia and Vitis amurensis with 189 samples.

Results

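The genes described here are 50 of the 42394 genes counted in grapevine buds. Their RNA rose early in buds of Vitis amurensis and late in buds of V. riparia and of the V. vinifera cultivars Cabernet Sauvignon and Riesling, and by the last day it was up in all 4 genotypes. They were chosen from measured values, on the scale log2(CPM+1), where CPM is the count of a gene per 1000000 gene counts of its library. A gene was taken if its mean over all libraries was at least 2, if the change from day 0 to day 3 was at least 1.5 in V. amurensis and below 0.5 in each other genotype, if the change to day 1 was below 0.7 in each other genotype, and if the change to the last day was at least 1 in all 4. The early rise in V. amurensis, the flat start elsewhere and the shared rise at the end are therefore how the genes were picked and not results. The other days entered the choice only through the mean level over all libraries. The tests below use those days, which lie next to or between the days that the limits used.

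Overwintering grape buds are dormant and cold hardy. When they meet warm temperatures they deacclimate, that is, they lose their cold hardiness, take up water and resume growth, and this ends in budbreak, when green tissue opens from the scales. Genotypes are known to differ in how fast this happens, and the wild East Asian species V. amurensis and the wild North American species V. riparia are both known for hardy wood and for quick deacclimation.

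The series followed buds on cuttings held in water at room temperature, from the day of pruning (day 0) until the buds began to open, and gives RNA counts for each day. V. amurensis gave 32 libraries from days 0 to 10 (10 days sampled), V. riparia 47 from days 0 to 12, Cabernet Sauvignon 58 from days 0 to 17 and Riesling 52 from days 0 to 15. All groups were untreated apart from the move to room temperature and time there. Each wild species was represented by 2 clonal vines in a germplasm collection and the cultivars came from a commercial vineyard. Between wild and cultivated vines, species and growing site therefore cannot be told apart. Replicates need not be separate plants. The p-values measure the spread between these samples only. The labels call the tissue dormant bud on every day, and the gene identifiers carried no gene names here, so no marker could be used to check the tissue. A bud holds many cell types, and more cells of a type cannot be told apart from more RNA per cell.

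Total gene counts ran from 168521 to 21262793 per library with a median of 5021123, and 14 libraries had fewer than 1000000. An amount of 3 counts, taken as the floor, stands for 0.141 to 17.8 CPM with a median of 0.598 CPM. Libraries within a genotype and day form 235 pairs. In 12 of these the biological coefficient of variation was at most 0.0814, against at least 0.110 in all others. These near copies differed by less than libraries of other pairs and were each counted as 1 sample, which left 177 samples. All 21 libraries labelled as a cultivar on days 5, 8 and 11 carried at least 94.5% markers of the other cultivar, while 68 of the 71 scored on other days carried at least 90% of their own. Results for the cultivars on days 5, 8 and 11 therefore stand under labels that the data go against. Those days were left out of every test of a change or a difference between genotypes, but not of the search for outlying samples. The 3 exceptions on other days were Cabernet Sauvignon day 6 replicates 1 and 4, which are near copies of each other, and Riesling day 4 replicate 2, which held 40.9% Cabernet Sauvignon markers.

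The choice was narrow. Of 15893 genes that passed the mean level, 3209 rose by at least 1 in all 4 genotypes by their last days, and these are called the shared risers below. Of them, 1669 had reached 1.5 in V. amurensis by day 3, and 53 of these were still below 0.5 on day 3 in each of the other 3 genotypes. The limit on day 1 removed 3 more. The 50 genes make up 1.56% of the shared risers, and the remaining 3159 are the comparison group below. With another genotype in the leading role, the same limits chose 2 genes for V. riparia, 1 for Cabernet Sauvignon and 0 for Riesling.

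The limits fell inside a continuous range of values. The member nearest the limit on day 3 in V. amurensis had risen by 1.51, and the nearest gene outside by 1.49. The largest day 3 change of a member in another genotype was 0.494, and the nearest gene outside had 0.502. The nearest member and non-member were at 2.01 and 1.98 in mean level, at 0.631 and 0.797 in the day 1 change, and at 1.02 and 0.898 in the last-day change. The day 3 limit in the other genotypes alone kept out 382 genes, and the day 3 limit in V. amurensis alone kept out 282.

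In V. amurensis the rise came between day 1 and day 4. The median change of the 50 genes from day 0, on the log2(CPM+1) scale, was 0.24 on day 1, 1.68 on day 2, 2.08 on day 3, 3.13 on day 4 and 3.75 on day 5. It then levelled off, at 4.06 on day 7, 4.17 on day 8, 4.18 on day 9 and 4.17 on day 10. Samples of a day lay close together. The median over the genes was 0.34, 0.27 and 0.28 in the 3 samples of day 1, and 1.81, 1.70 and 1.52 in those of day 2. On day 3 it was 2.19, 1.92 and 2.33, and on day 4 it was 3.01, 3.03 and 3.23. The samples of days 1, 2 and 4 did not overlap.

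In V. riparia the same genes stayed near their day 0 level for 5 days. Their median change was -0.12 on day 1, -0.09 on day 2, -0.07 on day 4 and 0.17 on day 5. It reached 0.51 on day 6, 0.86 on day 7, 2.41 on day 8, 2.67 on day 9, 3.52 on day 10 and 3.90 on day 11, and ended at 3.83 on day 12. The cultivars moved later again. In Cabernet Sauvignon the median change was 0.13 on day 4, 0.12 on day 7, 1.53 on day 9, 2.84 on day 10, 4.23 on day 12 and 4.47 on day 14. In Riesling it was 0.17 on day 4, 0.39 on day 7, 1.72 on day 9, 2.16 on day 10, 3.24 on day 12 and 3.87 on day 14. The median of V. amurensis on day 3, which the choice had set apart from the others, was first matched on day 8 in V. riparia and on day 10 in both cultivars.

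**Figure D1:**
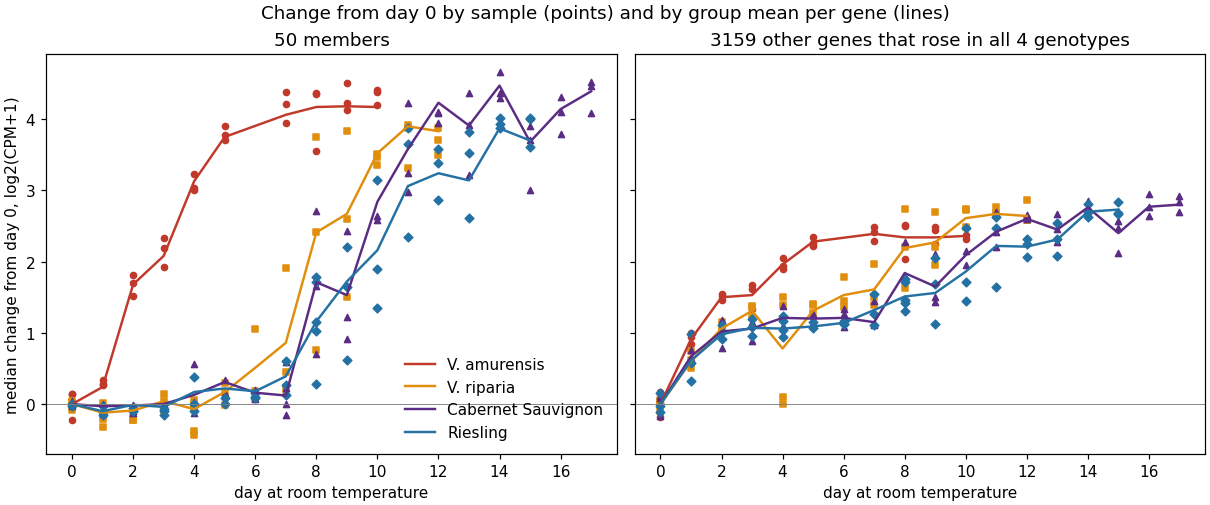
Median change from day 0 in log2(CPM+1) against days at room temperature, for the 50 members (left) and the 3159 other shared risers (right). Points are samples, lines follow the group mean of each gene and colours are genotypes. On the left the V. amurensis line reaches 3.13 by day 4, when the V. riparia line is at -0.07, and on the right the lines of all 4 genotypes are above 0 from day 1.

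The other shared risers did not show this wait, a difference in shape that follows from the choice. Their median change was already 0.91 on day 1 in V. amurensis, 0.60 in V. riparia and 0.67 in Cabernet Sauvignon, and on day 3 it was 1.53, 1.31 and 1.06 in that order, with 1.07 in Riesling. The 50 genes began lower in V. amurensis (0.24 on day 1) and ended higher, at 4.17 on day 10 against 2.36 for the other shared risers.

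Single genes moved in steps of different size. In V. amurensis 8 of the 50 were up by at least 1 on day 1, 44 on day 2 and 49 on day 4. Of the other shared risers 46.0, 70.5 and 84.6% were up by at least 1 on those days. A first rise by 1 fell on day 1 for 8 genes, on day 2 for 36 and on day 3 for 6. In V. riparia 22 were up by at least 1 on day 7 and 41 on day 8, against 72.6 and 90.3% of the other shared risers. In Cabernet Sauvignon the count was 11 on day 7, 33 on day 9 and 40 on day 10, and in Riesling it was 13, 32 and 40 on those days. The shares of the other shared risers were 54.6, 74.7 and 87.0% in Cabernet Sauvignon and 62.2, 72.8 and 84.6% in Riesling.

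**Figure D2:**
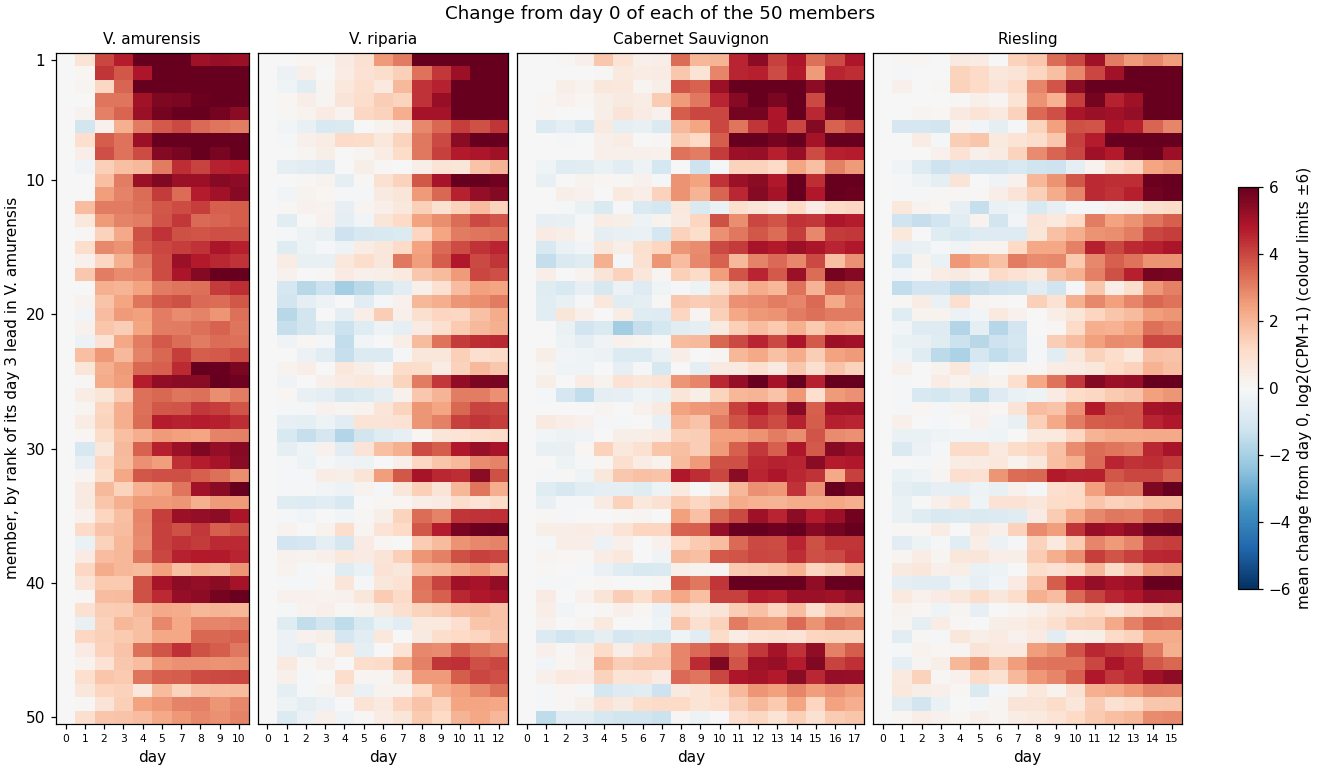
Mean change from day 0 in log2(CPM+1) for each of the 50 members (rows, ranked by the lead of V. amurensis on day 3) on each day (columns) in the 4 genotypes. Colours run to 6 in both directions, with larger changes drawn at that limit. Red begins at day 2 in V. amurensis, at day 8 in V. riparia and between days 8 and 11 in most rows of the cultivars.

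Sample by sample, the changes from day 0 were apart on day 2 for most of the 50 genes and on day 9 for fewer. Both days entered the choice only through the mean level, although day 0 entered it directly. Day 2 also lies between days whose limits held the other genotypes low, and V. amurensis had to be up on the later one. The counts therefore describe the genes chosen, and their excess over all genes is no separate support. On day 2 the lowest V. amurensis sample was above the highest V. riparia sample in 49 of the 50 genes, where 21.4% of all genes of at least the same mean level were. The count was 46 against Cabernet Sauvignon (22.9% of all genes) and 47 against Riesling (24.0%). By day 9, when the slower genotypes were on the move, it was 28 (10.8%), 34 (15.1%) and 32 (14.1%) in that order.

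The day on which a gene had made at least 50% of its last-day change gives the timing of each gene on its own scale. The median of that day was 3 in V. amurensis (quartiles 2 and 4), 8 in V. riparia (8 and 9), 10 in Riesling (9.25 and 11) and 10 in Cabernet Sauvignon (8 and 11). In days the genes ranged from 1 to 8, 6 to 11, 1 to 14 and 4 to 14 in that order. Without days 5, 8 and 11, whose cultivar labels the markers go against, the median was still 10 in both cultivars, with quartiles 9 and 12 in Cabernet Sauvignon and 9.25 and 12 in Riesling, an alternative chosen after the data were seen. Gene by gene, the day was later than in V. amurensis for 49 of 50 genes in V. riparia, 48 in Riesling and 49 in Cabernet Sauvignon, and on the same day for the rest. The median lag was 5, 7 and 6 days in that order. The limits on day 3 and on the last day largely fix that a lag exists, so these days describe the genes chosen and test nothing. The last day of each series is where buds opened, and it differs between genotypes, so the scale of each genotype ends at another day.

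**Figure D3:**
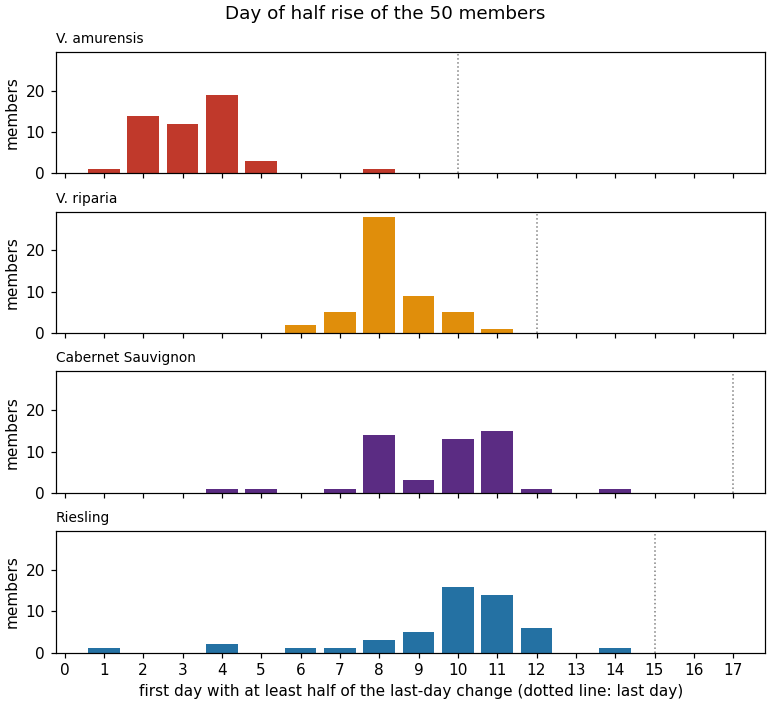
Number of members (y axis) by the first day on which a gene had made at least 50% of its last-day change (x axis), 1 panel for each genotype, with a dotted line at the last day sampled. The genes gather around day 3 in V. amurensis, day 8 in V. riparia and day 10 in the cultivars.

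Samples taken on the same day were less alike during the rise in the slower genotypes. On day 9 the median change of the 50 genes was 1.51, 2.60 and 3.84 in the V. riparia samples, 0.91, 1.22 and 2.43 in Cabernet Sauvignon and 1.65, 0.62 and 2.21 in Riesling, against 4.13, 4.22 and 4.51 in V. amurensis. The V. amurensis genes had levelled off by then. The samples of each genotype and day were put in order by the median change of the 50 genes. Since the order comes from the same 50 genes, most of them had to be higher in the highest sample than in the lowest, and the counts are a description. In V. riparia all 50 were higher on day 9 and again on day 8, and 44 on day 7, and 39, 46 and 25 of them followed the full order of the 3 samples on those days. On day 9 the count was 41 of 50 in Cabernet Sauvignon and 46 of 50 in Riesling, of which 28 and 27 genes in that order followed the full order. Among the other shared risers the share on day 9 was 82.6% in V. riparia, 84.4% in Riesling and 73.6% in Cabernet Sauvignon. Replicate 2 on day 9 had a share of records outside genes of 29.8 to 38.3% in every genotype, against a median of 14.5% over the series. Replicate 3 on day 9 had both the highest median change and the most gene counts in every genotype, from 6411698 in Riesling to 16016033 in V. amurensis. The lowest day 9 samples held 790198 gene counts in Riesling, 1107138 in Cabernet Sauvignon and 6602568 in V. riparia. The part of these shares and of depth in the values was not tested.

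At day 0 most of the genes were weakly expressed, although the highest stood at 34.8 CPM in V. amurensis and at 102 to 179 CPM in the other genotypes. The median gene had a mean of 1.22 CPM in V. amurensis, 1.25 in V. riparia, 1.39 in Riesling and 1.10 in Cabernet Sauvignon, and 2, 5, 5 and 7 genes in that order had no count at all. On the last day the median gene stood at 55.7, 38.7, 53.8 and 50.5 CPM, and every gene was counted. Added up, the 50 genes took 214.3 ± 47.1 CPM (SD, n = 4) of the V. amurensis buds at day 0 and 6463 ± 657 CPM (SD, n = 3) at day 10. The sums were 429.9 ± 84.3 (n = 4) and 3384 ± 420 CPM (n = 3) in V. riparia, 368.7 ± 66.6 and 3690 ± 257 CPM in Cabernet Sauvignon and 426.5 ± 87.8 and 4179 ± 136 CPM in Riesling (n = 3 each). V. amurensis thus had the lowest sum at the start and the highest at the end. Its day 0 samples held 212.0, 278.3, 165.3 and 201.8 CPM, all below the lowest sample of the other genotypes, 318.0 CPM in Cabernet Sauvignon. The largest single gene made up 14.7 to 18.9% of these V. amurensis sums and 20.9 to 50.1% of the day 0 sums in the other genotypes. The separation may therefore rest on few genes, and sums without the largest were not compared. Day 0 and the last day both entered the choice, so these levels are a description.

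Gene by gene the starting order was less uniform. V. amurensis had the lowest of the 4 day 0 means in 21 of the 50 genes and V. riparia in 14. Cabernet Sauvignon had it in 12 and Riesling in 3. Ties went to the genotype named first here, and 2, 5, 7 and 5 genes had no count at day 0 in this order. Vitvi03g00113, with no count in any genotype, is thus among the 21. V. amurensis was lowest in 14.1% of the other shared risers. A low day 0 mean in V. amurensis makes its day 3 limit easier to pass, so this contrast is a description. The highest last-day mean was in Riesling for 19 genes, in V. amurensis for 18, in Cabernet Sauvignon for 8 and in V. riparia for 5. The choice kept out genes that had returned to their day 0 level by the last day. The last day gave the highest mean for 19 members in V. amurensis, 24 in V. riparia, 30 in Riesling and 10 in Cabernet Sauvignon, and only 3, 2, 5 and 5 genes in that order had fallen by at least 1 from their peak by the last day. Among the other shared risers 8.2, 2.1, 7.8 and 8.1% had done so.

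Tests were made on days that entered the choice only through the mean level over all libraries, but they are not independent of it. The limits on day 3 and on the last day make a lead of V. amurensis on day 4 and later rises elsewhere likely. The counts below therefore describe the genes chosen, and their excess over all genes is no separate support. The days tested were days 1, 2, 4, 7 and 9 of V. amurensis, days 2, 4, 7, 9 and 11 of V. riparia and days 2, 4, 7, 9 and 14 of the cultivars. edgeR's quasi-likelihood test was fitted to 21877 genes in 64 samples, and all 50 genes passed the filter on low counts. A gene passed the test at a Benjamini-Hochberg adjusted p under 0.05 over all genes tested, and it is said to rise where it did so with a positive log2 fold change. Windows that share a day share its samples, so their counts are not independent of each other.

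The rise in V. amurensis was seen in 2 steps. From day 1 to day 2, 21 of the 50 genes rose and 0 fell, where 3.76% of all genes tested rose and 1.19% fell. The log2 fold change was above 0 for all 50, with a median of 2.02 against 0.62 for the other shared risers and 0.04 for all genes, and those that rose did so by 1.20 to 7.30. From day 2 to day 4, 19 rose and 0 fell, where 3.49% of all genes rose and 0.987% fell, with a median of 1.66. Leaving out any 1 library lowered the first count to between 9 and 17 and the second to between 7 and 13. The first fell to 9 without day 1 replicate 1, to 10 without day 1 replicate 3 and to 13 without day 2 replicate 2. The second fell to 7 without day 2 replicate 1 or 3, to 9 without day 2 replicate 2, and to 12 without day 4 replicate 1 or 4. Each such fit leaves 1 group with 2 samples.

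The other genotypes gave few calls in the same early window. From day 2 to day 4, 0 of the 50 genes rose in V. riparia, where 1.49% of all genes tested rose, 3 in Cabernet Sauvignon (1.19%) and 0 in Riesling (0.434%). At an unadjusted p under 0.05 in edgeR the counts were 8, 9 and 10, and with DESeq2 they were 5 in V. riparia and 3 in Riesling. The shares above are for adjusted p in edgeR and do not apply to these counts, which therefore stand without a share of all genes. The medians of the log2 fold change were nevertheless above 0, at 0.85, 1.15 and 1.05. Many of these genes were near the floor on both days. With genes that had no count in a group set to the bound that 3 counts over the group allow, and those at or under the floor on both days left out, the medians were 0.92, 0.99 and 1.02. Leaving out 1 library gave counts of 0 to 1 in V. riparia, 0 to 2 in Riesling and 0 to 3 in Cabernet Sauvignon. Whether the change in V. amurensis was larger than theirs in that window was not tested.

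On day 4 the levels differed between genotypes. Of the 50 genes, 41 were higher in V. amurensis than in V. riparia, where 20.8% of all genes tested were higher, with a median log2 difference of 3.81. The count was 45 against Cabernet Sauvignon (18.6% of all genes) with a median of 3.50, and 45 against Riesling (19.2%) with a median of 3.72. None of the 50 was lower, where 13.7, 14.9 and 16.1% of all genes tested were in the same order. The other shared risers had medians of 1.08, 1.03 and 1.12. These comparisons share the V. amurensis samples. Leaving out 1 library left 39 to 43, 40 to 43 and 41 to 44 genes.

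V. riparia day 4 holds libraries of poor quality. Records outside genes made up 69.0% and 68.4% in replicates 1 and 4, against 11.9 to 18.5% in the other 3 replicates, and replicate 2 had 168521 gene counts. The median change of the 50 genes from day 0 was -0.44 and -0.38 in replicates 1 and 4 and -0.04, 0.06 and 0.00 in replicates 2, 3 and 5. All 5 were below the V. amurensis samples of that day, of which the lowest was at 3.01. Without replicates 1 and 2, the libraries of fewest counts, 41 genes were higher in V. amurensis on day 4, and without replicates 1, 2 and 4 it was 43. From day 4 to day 9, described next, 41 and 43 genes rose in V. riparia in those fits. Without Riesling day 4 replicate 2, the library of mixed markers, 41 genes were higher in V. amurensis than in Riesling.

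Between day 4 and day 9 the genes rose in the slower genotypes. In V. riparia 44 of the 50 rose and 0 fell, where 13.7% of all genes tested rose and 7.31% fell, and the median log2 fold change was 3.81. With the 2 genes that had no count on day 4 set to their bound, that median was 3.64. In Cabernet Sauvignon 19 rose (1.62% of all genes) with a median of 2.11, and in Riesling 22 rose (3.16%) with a median of 2.10. In V. amurensis 18 still rose (7.98% of all genes), with a median of 1.33.

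Those counts rested on the samples to different degrees. The count in V. riparia was 30 to 44 when 1 library was left out. In the cultivars, where the day 9 samples lay far apart, it depended on the highest of them. Without day 9 replicate 3 it was 0 in Cabernet Sauvignon and 1 in Riesling. It was 4 and 12 in Cabernet Sauvignon without day 4 replicate 3 and 2, and 13 and 14 in Riesling without day 4 replicate 1 and 3. In V. amurensis it fell to 11 without day 4 replicate 1 or day 9 replicate 3.

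The change from day 4 to day 9 was also tested for a difference between V. amurensis and each other genotype. Such a difference reflects the size of the changes as well as their timing. In V. riparia 14 genes rose by more than in V. amurensis and 1 by less, where 2.77% of all genes tested changed by more and 1.03% by less, and the median of the difference was 2.08 on the log2 scale against 0.22 for all genes. In Cabernet Sauvignon 3 rose by more and 2 by less (2.19 and 1.30% of all genes), and in Riesling 5 by more and 1 by less (2.66 and 1.58%). The medians there were 0.73 and 0.70 against 0.13 and 0.12 for all genes. The count for V. riparia fell to 9 without V. amurensis day 9 replicate 2 or V. riparia day 9 replicate 3 and to 8 without V. riparia day 4 replicate 5. For the cultivars it ran from 1 to 5 and from 2 to 9. A gene that missed the threshold here is not shown to change alike in both genotypes.

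After day 9 the cultivars went on. From day 9 to day 14, 42 of the 50 genes rose in Cabernet Sauvignon and 0 fell, where 16.3% of all genes tested rose and 14.4% fell, with a median log2 fold change of 2.24. In Riesling 35 rose (13.9%) with a median of 1.98. Leaving out 1 library gave 31 to 44 in Cabernet Sauvignon and 19 to 39 in Riesling, where the count was 19 without day 9 replicate 2 and 23 without day 9 replicate 1. Replicates 1 and 3 of day 14 had 27.6 and 33.5% of records outside genes in Cabernet Sauvignon and 29.5 and 30.3% in Riesling, and replicate 2 of day 9 had 32.8 and 35.5%. Without these and the other libraries over 25%, which leaves 1 sample on day 14 and 2 on day 9 in each cultivar, 14 and 15 genes rose. The lone sample is assumed there to vary like the other groups. The shares of 16.3 and 13.9% come from the fit to 64 samples and do not apply to that smaller fit. In V. riparia 2 genes rose from day 9 to day 11 (0.942% of all genes), with a median of 0.94, and 17 did so without day 9 replicate 3, the sample whose genes were already highest.

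**Figure D4:**
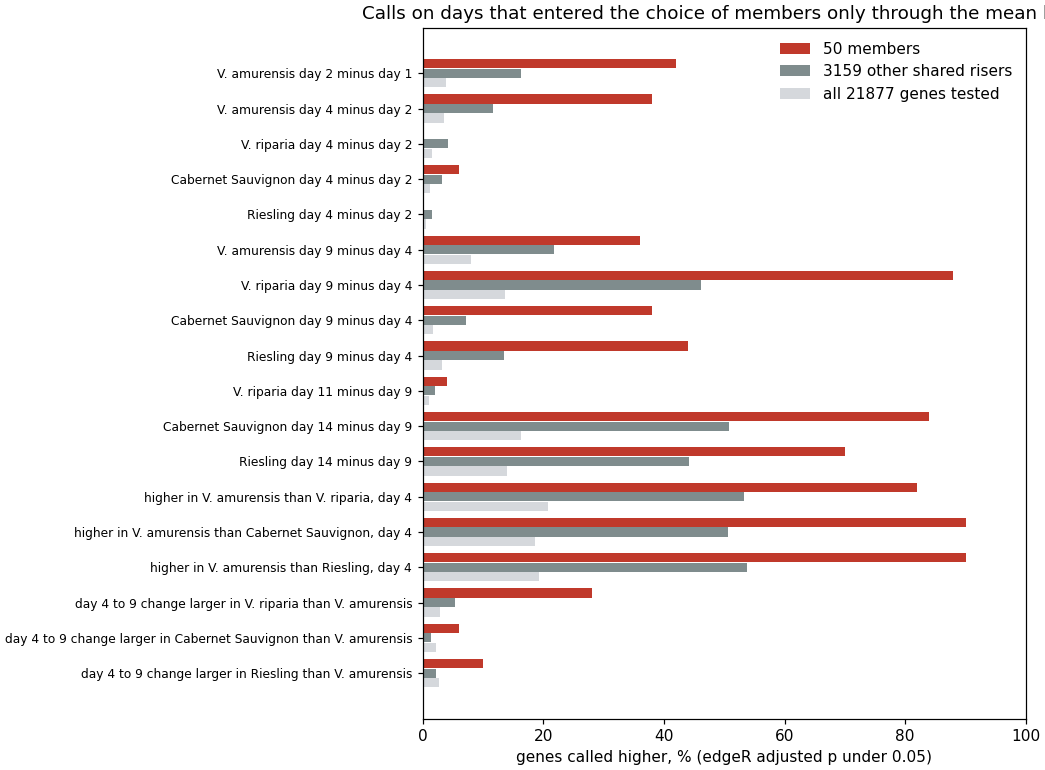
Share of genes called higher (x axis, percent, edgeR adjusted p under 0.05) in each of the 18 comparisons (y axis) for the 50 members, the 3159 other shared risers and all 21877 genes tested. At least 41 of 50 members were called in each of the 3 comparisons between genotypes on day 4, where 18.6 to 20.8% of all genes were. The count was 44 in V. riparia between days 4 and 9 (13.7% of all genes) and 42 in Cabernet Sauvignon between days 9 and 14 (16.3%). It was 0 in V. riparia (1.49%) and in Riesling (0.434%) between days 2 and 4.

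Vitvi03g00113 had the largest lead of V. amurensis on day 3, 4.38 above the highest of the other genotypes on the log2(CPM+1) scale. It had no count in any of the 17 day 0 libraries, in which 3 counts correspond to 0.185 to 4.15 CPM. In V. amurensis its samples held 0.437, 1.53 and 0.580 CPM on day 1. They held 17.1, 14.5 and 13.7 CPM on day 2 and 113, 114 and 81.1 CPM on day 4. The samples were highest on day 5, at 119, 149 and 171 CPM, and held 37.6, 30.3 and 36.1 CPM on day 10. In edgeR the log2 fold change was 4.31 ± 0.985 (SE, adjusted p = 0.00453) from day 1 to day 2 and 2.89 ± 0.769 (adjusted p = 0.0170) from day 2 to day 4. The first call was lost without day 1 replicate 1 or 3, and the second without any 1 of the day 2 libraries or of day 4 replicates 1 and 3, and also with DESeq2. From day 4 to day 9 the log2 fold change was -1.47 ± 0.771 (edgeR adjusted p = 0.192).

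In V. riparia Vitvi03g00113 went from near nothing to its highest levels in any genotype. It averaged 0.887 ± 0.106 CPM (SD, n = 3) on day 5. Its samples were at 89.96, 138.7 and 432.5 CPM on day 9, at 873, 512 and 290 CPM on day 10 and at 389.5, 411 and 278 CPM on day 12. All of these were above the last-day samples of V. amurensis. On day 4 the 5 V. riparia samples together held 3 counts of it, against 6594 on day 9. The pooled CPM of day 9 was 1186 times that of day 4, with an exact 95% interval from 406 to 5753 that covers counting error only. The pooled CPM of V. amurensis on day 4 was 403 times that of V. riparia (interval 138 to 1955). The fitted edgeR values rest on those 3 counts. They were log2 fold changes of 9.48 ± 1.19 (adjusted p = 5.22e-07) from day 4 to day 9, larger than in V. amurensis by 10.95 ± 1.49 (adjusted p = 5.51e-06), and of 8.43 ± 1.22 (adjusted p = 6.17e-07) between V. amurensis and V. riparia on day 4.

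The cultivars reached lower levels of Vitvi03g00113 than the highest means of either wild species. Their own highest means came before the last day. They were 46.9 ± 28.0 CPM on day 12 in Cabernet Sauvignon and 44.1 ± 64.7 CPM on day 10 in Riesling (SD, n = 3 each). The Riesling samples of day 10 held 118.6, 12.3 and 1.45 CPM. On the last day its samples held 20.4, 26.3 and 41.5 CPM in Cabernet Sauvignon and 3.23, 6.78 and 4.78 CPM in Riesling. In order of the last-day means the genotypes stood at 359.7 ± 71.4 CPM in V. riparia, 34.6 ± 3.86 in V. amurensis, 29.4 ± 10.9 in Cabernet Sauvignon and 4.93 ± 1.78 in Riesling (SD, n = 3 each), and the samples of V. amurensis and Cabernet Sauvignon overlapped. On day 4 the gene was higher in V. amurensis by 5.28 ± 0.932 than in Cabernet Sauvignon (edgeR adjusted p = 1.68e-05) and by 7.86 ± 1.19 than in Riesling (adjusted p = 1.18e-06). From day 4 to day 9 the log2 fold change was 0.78 ± 0.983 in Cabernet Sauvignon (edgeR adjusted p = 0.755) and 4.62 ± 1.43 in Riesling (adjusted p = 0.0478). Riesling held 3 counts on day 4 and 82 on day 9, a ratio of pooled CPM of 25.8 (exact 95% interval 8.52 to 128), and its day 4 difference from V. amurensis was 237 times (81.1 to 1152). The call in Riesling was lost without day 4 replicate 1, 3 or 4 or without day 9 replicate 1 or 3. From day 9 to day 14 it rose by 2.83 ± 0.854 in Cabernet Sauvignon (edgeR adjusted p = 0.00913), a call that was lost without day 9 replicate 2.

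Vitvi05g01516 had the highest mean of the 50 genes over all libraries, 7.17 on the log2(CPM+1) scale, which is not corrected for gene length. It differs from most of the others in being well expressed at day 0, and it was lowest there in V. amurensis. Its day 0 samples held 36.4, 52.7, 18.6 and 19.9 CPM in V. amurensis, 66.9, 89.6, 46.8 and 102 CPM in V. riparia, 93.1, 149 and 132 CPM in Cabernet Sauvignon and 147, 264 and 128 CPM in Riesling. The V. amurensis samples overlapped those of V. riparia and lay below those of both cultivars. In V. amurensis they reached 95.1, 143 and 92.2 CPM on day 1, 326, 294 and 177 CPM on day 2 and 279, 363 and 261 CPM on day 4. By then the Cabernet Sauvignon samples were at 72.5, 43.4 and 92.6 CPM, all below their day 0 samples. On the last day the means were 391.9 ± 132 CPM in V. amurensis, 373.3 ± 64.1 in Riesling, 297.9 ± 60.7 in Cabernet Sauvignon and 185.8 ± 25.3 in V. riparia (SD, n = 3 each). Only the V. riparia samples stood below all the others.

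In edgeR the log2 fold change of Vitvi05g01516 in V. amurensis was 1.31 ± 0.360 (SE, adjusted p = 0.0199) from day 1 to day 2 and 0.31 ± 0.354 (adjusted p = 0.693) from day 2 to day 4. The first call was lost without day 1 replicate 1 or 3 and without day 2 replicate 1 or 2. On day 4 the gene was higher in V. amurensis than in V. riparia by 2.02 ± 0.322 (edgeR adjusted p = 3.80e-06), than in Cabernet Sauvignon by 2.01 ± 0.369 (adjusted p = 2.98e-05) and than in Riesling by 1.04 ± 0.332 (adjusted p = 0.0114). The last of these was lost without V. amurensis day 4 replicate 3 or without Riesling day 4 replicate 2, the library of mixed markers, where the difference was 0.81 and the adjusted p 0.0569. The gene rose late in the other genotypes, by 0.88 ± 0.323 from day 4 to day 9 in V. riparia (edgeR adjusted p = 0.0449), by 2.03 ± 0.370 from day 9 to day 14 in Cabernet Sauvignon (adjusted p = 3.94e-05) and by 1.48 ± 0.366 in Riesling (adjusted p = 0.00195). The V. riparia call was lost without day 4 replicate 1, 2 or 4 or day 9 replicate 2 or 3, with size factors by the RLE method and with DESeq2.

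**Figure D5:**
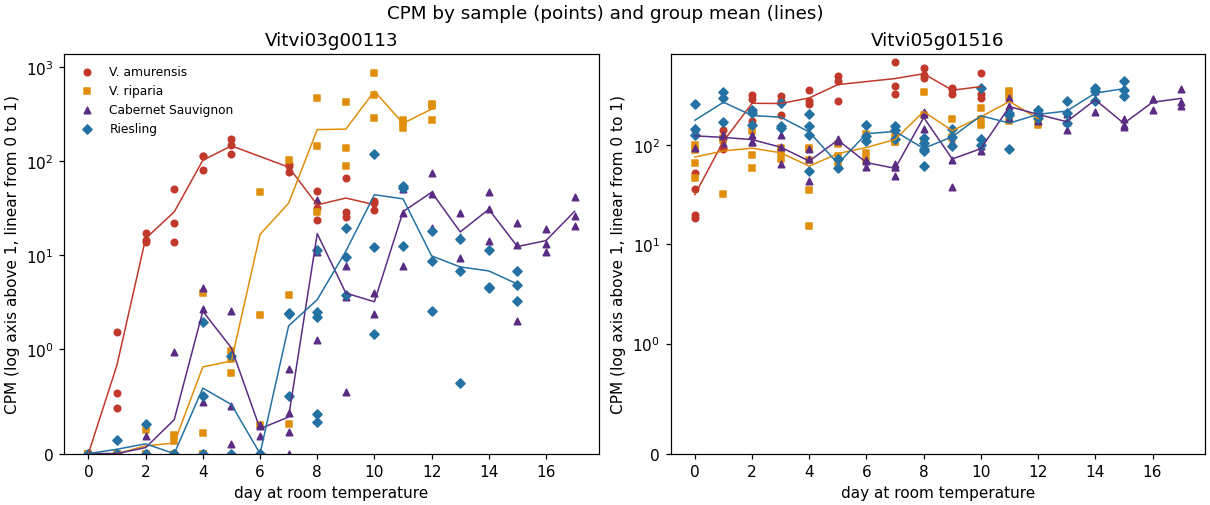
CPM of Vitvi03g00113 (left) and Vitvi05g01516 (right) in each sample (points) with group means (lines) against days at room temperature, on an axis that is logarithmic above 1 CPM and linear below. Vitvi03g00113 starts at 0 in all genotypes and ends between 3.23 and 411 CPM, and Vitvi05g01516 starts between 18.6 and 264 CPM.

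The other members are given by their rank in the lead of V. amurensis on day 3. The gene ranked 2 led by 3.74. It was up by 4.31 on day 2 and by 10.31 on day 10 in V. amurensis. The gene ranked 3 led by 3.13 and had a last-day change of at least 6.61 in every genotype. The gene ranked 9 had changes of -1.25 in Cabernet Sauvignon and -1.24 in Riesling on day 9, and of 2.54 and 2.57 on their last days. The gene ranked 48 was at 0.66 on day 4 in V. amurensis, between 1.40 on day 3 and 1.88 on day 5. Because near copies were summed for these values and not for the choice of genes, the smallest day 3 change in V. amurensis reads 1.35 and not 1.51.

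The identifiers of the 50 genes carry 17 different chromosome numbers in their digits. The largest group is 7 genes with the digits 07, which 7.98% of the genes that passed the mean level carry. The digits 01 and 11 have 5 each. The smallest difference between serial numbers on a chromosome is 24, and 0 pairs lie within 10, so that the members are not runs of neighbouring identifiers. No identifier was matched to a gene name, a sequence or a position, so the gene families among the 50 are not described. How reads of near-identical paralogs were shared out by the authors' counting cannot be seen in the counts.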

How the data were processed

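Buds were sequenced in 189 libraries of 4 genotypes, and genotype, day and replicate were taken from the labels. The deposited tables hold whole-number counts for 42394 genes and 5 bookkeeping lines, which took 16.9 to 83.0% of a library's records (median 26.5%) and stayed out of library sizes and tests. RNA was isolated with the Sigma Spectrum kit and libraries followed a modified published protocol, per the labels' protocols. cutadapt, STAR, HTSeq and DESeq2 are listed in the submitters' processing notes, without versions or roles, and the genome build and annotation are not given in the sources used here. None of the 42394 identifiers matched the RefSeq gene table used for names (ASM3070453v1).

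CPM and log2(CPM+1), with a pseudocount of 1, were computed from the deposited counts with Python 3.11.15, NumPy 2.4.6 and pandas 2.3.3. The members and the tests were chosen with earlier results of these data known. The genes named are the member with the largest day 3 lead and the member with the highest mean, and other members are given by rank. The choice of members used every library, whereas means and tests used near copies (pairwise BCV under 0.09) with their counts summed to 1 sample. For the cultivar check, 4 Cabernet Sauvignon and 8 Riesling markers were taken, genes at 5 CPM or more in all libraries of days 0, 1 and the last day of their cultivar and at most 0.5 CPM in those of the other.

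Differences were tested with edgeR 4.0.16 in R 4.3.3 (TMM, its filter on low counts, trended dispersion, quasi-likelihood F test, two-sided) in 1 fit of 66 libraries as 64 samples in 20 groups, with 44 residual degrees of freedom and a common BCV of 0.344. Benjamini-Hochberg adjustment was over 21877 genes with a threshold of 0.05, and SE is the log2 fold change divided by the square root of F. On counts simulated for V. riparia day 9 against day 4 on 21877 genes, 98 of 100 genes changed 4-fold and 29 of 100 changed 2-fold were recovered, with 5 false calls. The simulation gave all genes the same BCV, below the 0.344 of the fit, and changed only genes above a limit on mean counts. Many members were near the floor on day 4, so these rates need not hold for them. Alternatives were RLE size factors, no filter on low counts, near copies kept apart, libraries with over 25% of records outside genes left out, doubtful libraries left out, a replicate block, DESeq2 1.42.0, re-chosen members and each library left out in turn. Same-numbered samples did not deviate together in every pair of days checked, days 2 and 4 and days 4 and 9 (correlations from -0.398 to 0.336). Replicate numbers were therefore not taken to pair samples. Days after day 9 were not checked for pairing. From day 12 on, replicates 1 and 3 of both cultivars had a larger share of records outside genes than replicate 2.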

Additional observations from a re-analysis of the deposited data

Results flagged for a closer look

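A difference between genotypes under the same contrast was tested for the change from day 4 to day 9. It passed (edgeR adjusted p under 0.05) with a larger change than in V. amurensis for 14 of the 50 genes in V. riparia, 5 in Riesling and 3 in Cabernet Sauvignon, against 2.77, 2.66 and 2.19% of all genes tested. A smaller change passed for 1, 1 and 2 of the 50. For Vitvi03g00113 the difference from V. amurensis was 10.95 on the log2 scale in V. riparia and 6.10 in Riesling (edgeR adjusted p = 0.0207). Both rest on 3 counts on day 4, in V. riparia and in Riesling. The latter missed the threshold without V. amurensis day 9 replicate 3 or Riesling day 4 replicate 3.

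Samples far from the rest of their group were found for Vitvi03g00113 in 2 groups, each with 5 samples. There were 16 such tests, over the members' median change and the CPM of the 2 named genes. Chance flags about 1 in 20 groups, a rate that need not hold for values that rest on few counts. Riesling day 8 replicate 2 held 11.46 CPM, where the other 4 samples held 0.302 to 2.51 CPM. Libraries under that label carried Cabernet Sauvignon markers. V. riparia day 4 replicate 1 held 3.95 CPM, where the others held 0 to 0.200 CPM. It is a library with 69.0% of its records outside genes and 505932 gene counts, so the value is 2 counts.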

How the results depend on the processing

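Over all alternatives except those that leave out 1 library at a time, and with the 1 chosen after the data were seen, 176 recomputed counts of members were within 1.5 times the reported one and 25 were not. Of the named genes' values 308 kept their direction and side of the threshold, 12 lost a call, 2 gained one and 2 changed sign. With no filter on low counts, 2 genes rose in Riesling from day 2 to day 4 and 6 in V. riparia from day 9 to day 11, and 6 in Cabernet Sauvignon and 9 in Riesling changed by more than in V. amurensis. With near copies kept apart these were 3, 4 and, for Cabernet Sauvignon, 5. Without libraries with over 25% of records outside genes, 0 rose in V. riparia from day 9 to day 11, 14 and 15 from day 9 to day 14 in Cabernet Sauvignon and Riesling, and 8 changed by more in Riesling. Without V. riparia day 4 replicates 1, 2 and 4, an alternative chosen after the data were seen, 1 gene rose in Riesling from day 2 to day 4. The replicate block gave 11 in V. amurensis and 14 in Riesling from day 4 to day 9, 6 in V. riparia from day 9 to day 11, and 3, 1 and 2 for the larger change in V. riparia, Cabernet Sauvignon and Riesling. DESeq2 gave 5 in V. riparia and 3 in Riesling from day 2 to day 4, 4 in V. riparia from day 9 to day 11 and 1 for the larger change in Cabernet Sauvignon. The rule with TMM-scaled CPM chose 61 genes, 40 of them members, with near copies averaged 60 (48), and with a pseudocount of 0.5 it chose 43 (28). Of the first 2 sets, 1 gene each rose in V. riparia from day 9 to day 11, and 5 of the second changed by more in Cabernet Sauvignon. The causes were not tested.

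Counts with 1 library left out ran from 9 to 17 (V. amurensis, day 1 to 2), 7 to 13 (day 2 to 4) and 11 to 15 (day 4 to 9), from 0 to 1, 30 to 44 and 0 to 17 in the 3 windows of V. riparia, from 0 to 3, 0 to 22 and 31 to 44 in Cabernet Sauvignon and from 0 to 2, 1 to 24 and 19 to 39 in Riesling. They ran from 39 to 43, 40 to 43 and 41 to 44 for day 4 levels and from 8 to 16, 1 to 5 and 2 to 9 for the larger change, in the order V. riparia, Cabernet Sauvignon, Riesling. Signs turned only in changes of the named genes that were not called. Vitvi05g01516 was at -0.07 in Cabernet Sauvignon (day 4 to 9) with near copies apart and at 0.10 in V. riparia (day 2 to 4) without the 3 libraries. With 1 library left out it ran from -0.29 to 0.29 and from -0.60 to 0.04 there, from -0.01 to 0.40 in V. amurensis (day 2 to 4) and from -0.45 to 0.11 in Riesling (day 4 to 9). Vitvi03g00113 ran from -0.70 to 1.35 in Cabernet Sauvignon (day 4 to 9) and from -0.04 to 1.17 in V. riparia (day 9 to 11). Depth limits the weakest genes: 14 libraries held under 1000000 counts.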
